A study of Homo sapiens with 4 samples.

Results

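Insulin-like growth factor (IGF) binding proteins and their partners were described here by 26 probe sets of 10 genes, out of 41920 probe sets tested and 18304 genes named. These were all the probe sets that the platform annotation assigns to a single gene, that gene being IGFBP1 to IGFBP7, IGF1, IGF2BP3 or IGF2R. The group is of mixed kind: 7 genes encode secreted IGF-binding proteins, IGF1 is its only ligand, IGF2R is a receptor, and IGF2BP3 encodes an RNA-binding protein named after the IGF2 mRNA it binds. Another 3 probe sets name IGF2 together with the read-through gene INS-IGF2. They were fitted with all probe sets but not counted among the members. The samples were U87 cells, a long-established line of human glioma, with QK (the RNA-binding protein gene QKI) knocked down. There were 2 samples of QK-knockdown cells transduced with miR-20a and 2 of QK-knockdown cells transduced with miR-NT, a non-targeting microRNA of scrambled sequence, each read on 1 Affymetrix array. All 4 samples carry the knockdown, so the comparison concerns miR-20a in cells depleted of QK. Separate cultures are not mentioned for the samples within a group, so the p-values rest on a spread that may be technical.

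IGF1 and IGF2 are growth peptides that signal through the receptor tyrosine kinase IGF1R. Outside cells most of the peptide is held by IGF-binding proteins, which lengthen its life and limit its access to the receptor until proteases cut them. Several binding proteins also act without IGF, by contact with cell surfaces and matrix, and glioma cells are known to secrete IGFBP2 and IGFBP3. IGF2R, which lacks kinase activity, carries IGF2 to lysosomes for breakdown and also sorts enzymes tagged with mannose 6-phosphate.

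The microRNA supplied and the promoters of a pair of members are shown to make the compared items concrete. The mature 5′ arm of miR-20a is given beside that of miR-17, with the seed (bases 2 to 8) in capitals, because this seed is shared by 8 mature human microRNAs in RefSeq (GRCh38.p14).
hsa-miR-20a-5p: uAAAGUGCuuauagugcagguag
hsa-miR-17-5p: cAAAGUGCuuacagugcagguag
These lie on the plus strand of chromosome 13, at chr13:91351072-91351094 for miR-20a-5p and chr13:91350618-91350640 for miR-17-5p. The arrays give no level of mature miR-20a.

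RefSeq promoter windows, 250 bases before to 50 after an annotated start (GRCh38.p14), were matched for 8 of the 10 genes, and IGFBP1 and IGFBP7 had no match. Those of IGFBP3, the member that passed the test, and of IGF2BP3, the gene with 4 of 4 probe sets higher, follow 5′ to 3′. Capitals mark TATANA (TATA-like), GGGCGG (GC box) and CACGTG (E-box), searched on both strands. The IGFBP3 window is chr7:45921223-45921522 and the IGF2BP3 window chr7:23470442-23470741, both on the minus strand.
IGFBP3: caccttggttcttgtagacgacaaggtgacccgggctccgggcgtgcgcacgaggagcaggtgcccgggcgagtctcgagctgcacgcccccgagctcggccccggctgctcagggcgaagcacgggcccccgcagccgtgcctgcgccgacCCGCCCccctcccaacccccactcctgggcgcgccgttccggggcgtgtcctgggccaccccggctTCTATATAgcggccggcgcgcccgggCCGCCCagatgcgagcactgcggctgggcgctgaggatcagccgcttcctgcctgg
IGF2BP3: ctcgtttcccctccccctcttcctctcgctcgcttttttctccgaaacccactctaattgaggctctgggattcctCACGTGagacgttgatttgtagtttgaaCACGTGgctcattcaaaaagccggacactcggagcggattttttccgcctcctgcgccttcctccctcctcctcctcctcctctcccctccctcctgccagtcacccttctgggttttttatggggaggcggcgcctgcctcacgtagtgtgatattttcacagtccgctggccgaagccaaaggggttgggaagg
The IGFBP3 window held 2 overlapping TATANA matches, whose first bases lay 32 and 30 bases before the start, and 2 GC boxes that overlapped no other motif. The IGF2BP3 window held 2 E-boxes and neither of the other motifs. Of all 35116 promoter windows in the table, 19% held TATANA, 45% GGGCGG and 7.26% CACGTG. Among the other matched members, IGFBP4 also held TATANA (1 match), IGF2R held 6 GC boxes and 3 E-boxes, and IGFBP5 and both windows of IGF1 held none of these letters. These matches describe the sequence only.

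By group means, IGFBP3 was 1.91-fold and 1.79-fold higher in the miR-20a samples by its 2 probe sets. It was the only one of the 10 genes past the threshold (limma, adjusted p under 0.05 over all probe sets). IGFBP7, IGFBP1, IGF2BP3 and IGF2R had higher means by their brighter probe sets without passing it. IGFBP2, IGFBP4 and IGFBP6 differed by less than 0.1 log2 units. Means were lower for 4 of 4 probe sets of IGF1 and 5 of 6 of IGFBP5, and for 23166 of all 41920. The lower direction held no call. In all, 2 of 26 probe sets rose and 0 fell at the adjusted threshold (limma), where 0.119% of all probe sets rose and 0.0167% fell. Both of the 2 belong to IGFBP3. At an unadjusted p under 0.05 (limma), 6 were higher, where 9.46% of all probe sets were, and 1 was lower, where 8.40% were. Together these 7 are 26.9% of the 26, against 17.9% of all probe sets. The groups did not overlap for 8 probe sets that were higher, against 21.7% of all probe sets, and for 7 that were lower, against 27.2%. In both directions together that is 57.7% of the 26 and 48.9% of all probe sets. The median log2 change was 0.004 over the 26 and -0.02 over all probe sets, and after quantile normalization -0.03 and -0.008.

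**Figure D1:**
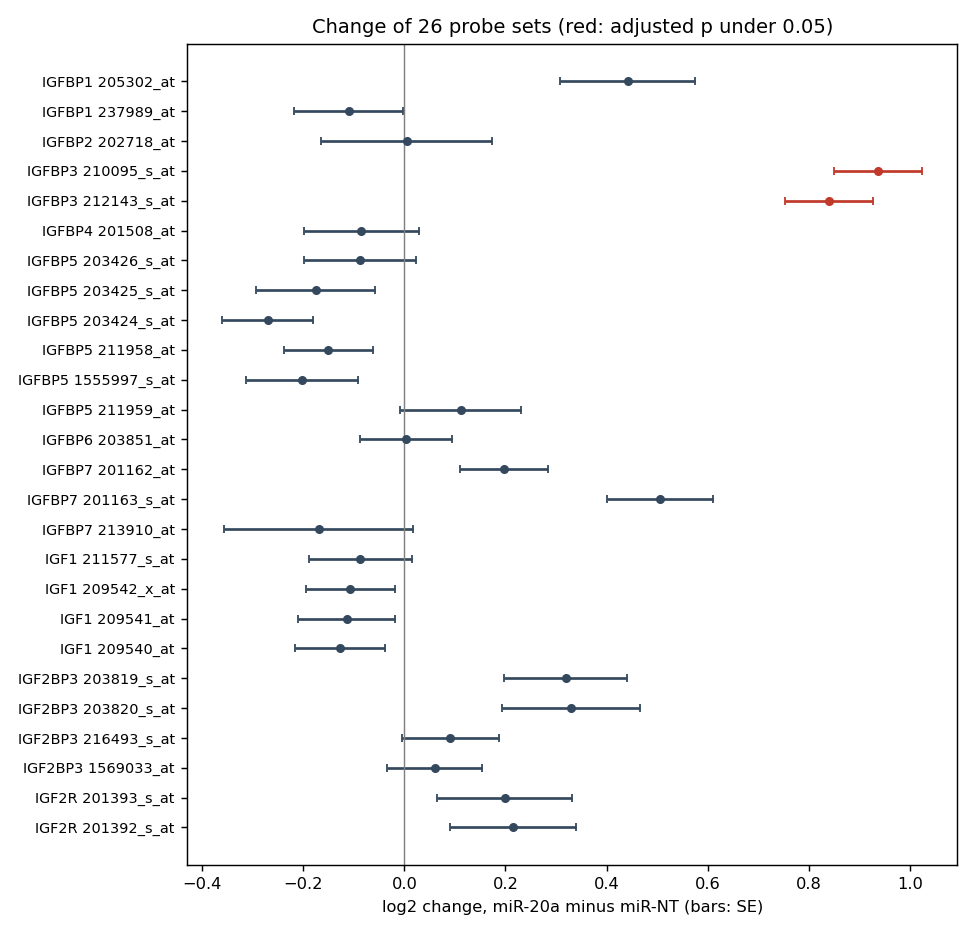
log2 change (miR-20a minus miR-NT, horizontal axis) of the 26 probe sets, with the standard error from limma as bars and 2 arrays per group. The IGFBP3 probe sets, in red, stand at 0.94 and 0.84, and the other 24 lie between -0.27 and 0.51.

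IGFBP3 encodes the main IGF carrier of blood, which binds IGF with the acid-labile subunit and also occurs on cell surfaces. By probe set 210095_s_at its log2 level was 12.82 and 12.79 on the miR-20a arrays, against 11.89 and 11.84 on the miR-NT arrays. The second probe set, 212143_s_at, read 11.77 and 11.76 on the miR-20a arrays, against 10.95 and 10.89 on the miR-NT arrays. With either probe set both miR-20a arrays lay above both miR-NT arrays, and the gap was many times the distance between arrays of a group. The log2 change was 0.94 ± 0.09 (SE, n = 2 each, 95% interval 0.73 to 1.15, limma adjusted p = 0.028) for the first and 0.84 ± 0.09 (0.63 to 1.05, limma adjusted p = 0.038) for the second. Of all 41920 probe sets, 42 had a larger positive change than the first and 65 a larger one than the second.

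The size of the IGFBP3 change was steadier than its adjusted p. Without any 1 array it stayed between 0.91 and 0.96 for 210095_s_at and between 0.81 and 0.87 for 212143_s_at. The adjusted p (limma) of 210095_s_at was 0.072 without miR-20a replicate 1, 0.046 without miR-20a replicate 2, 0.40 without miR-NT replicate 1 and 0.30 without miR-NT replicate 2. For 212143_s_at the same settings gave 0.099, 0.063, 0.52 and 0.30. Without either miR-NT array 0 of all 41920 probe sets passed (limma), with 3231 and 5097 at an unadjusted p under 0.05. Quantile normalization brought the change to 0.80 for 210095_s_at (adjusted p = 0.040, limma) and to 0.67 for 212143_s_at (adjusted p = 0.061, limma), so the second call was lost there, as it was with cyclic loess (0.70, adjusted p = 0.058, limma).

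**Figure D2:**
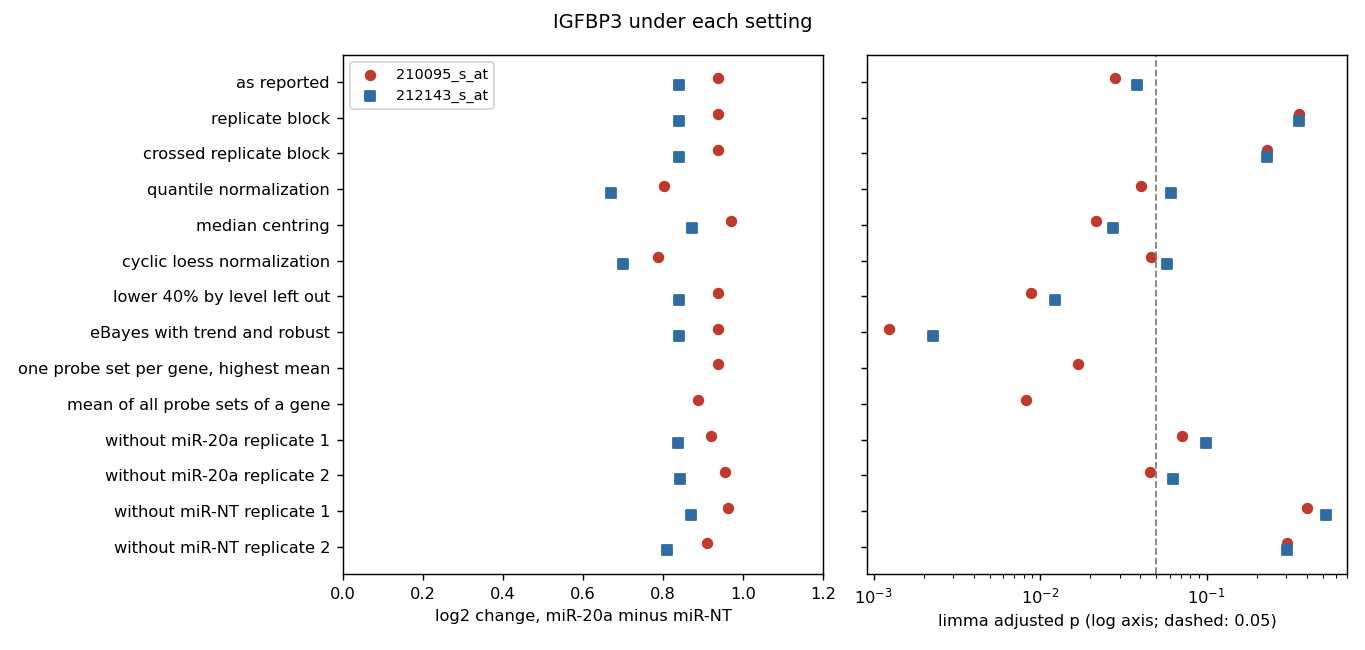
IGFBP3 by its 2 probe sets under each setting, with the log2 change (miR-20a minus miR-NT) on the left and the limma adjusted p on a log axis on the right, where the dashed line is 0.05. The change lies between 0.67 and 0.97 throughout, while the adjusted p runs between 0.0012 and 0.52.

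IGFBP1, a binding protein that insulin represses in liver and that is abundant in decidua, is the neighbour of IGFBP3 on chromosome 7 in the RefSeq gene table of GRCh38.p14, with no other gene starting between them. Its brighter probe set, 205302_at, read 9.94 and 9.75 on the miR-20a arrays and 9.24 and 9.56 on the miR-NT arrays. The groups did not overlap, but the closest arrays were 0.19 log2 units apart and the miR-NT arrays 0.32. The change of 0.44 ± 0.13 (SE) did not pass (limma adjusted p = 0.19), and it lay between 0.28 and 0.60 when 1 array was left out. The other probe set, 237989_at, read 4.36 and 4.59 on the miR-20a arrays and 4.56 and 4.61 on the miR-NT arrays, so its groups overlapped. Its log2 change was -0.11 ± 0.11, of the opposite sign. Its mean level lay at percentile 8.67 over all probe sets, against 91.3 for 205302_at.

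IGFBP7 encodes a secreted protein of low IGF affinity that is found in vessel walls and matrix. Probe set 201163_s_at read 11.20 on each miR-20a array, against 10.59 and 10.81 on the miR-NT arrays. Probe set 201162_at read 11.97 and 12.0 on the miR-20a arrays, against 11.81 and 11.77 on the miR-NT arrays. In both cases the groups were apart, with the miR-20a arrays closer together than the miR-NT arrays. The changes were 0.51 ± 0.10 (SE, limma adjusted p = 0.14) and 0.20 ± 0.09 (limma adjusted p = 0.30), so these probe sets of 1 gene shared a sign and differed in size. With a mean-variance trend and a robust fit, 201163_s_at had an adjusted p of 0.034 (limma). After quantile normalization the change of 201162_at was 0.01. The remaining probe set, 213910_at, ranged between 5.10 and 5.63 on the miR-20a arrays and between 5.38 and 5.68 on the miR-NT arrays, with a change of -0.17 ± 0.19 and overlapping groups.

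IGFBP5, a binding protein that attaches to matrix and is known from bone and muscle, was covered by 6 probe sets. Of the 6, 5 had a lower mean on the miR-20a arrays, as had 23166 of all 41920. Only 203426_s_at and 203425_s_at lay at or above the 40th percentile of mean level. The 6 changes ran between -0.27 and 0.11, and none passed (limma, lowest adjusted p = 0.21). Probe set 203424_s_at read 5.97 and 6.00 on the miR-20a arrays, against 6.21 and 6.30 on the miR-NT arrays. It was the only one of the 26 that was lower at the unadjusted threshold, with a change of -0.27 ± 0.09 (SE, limma adjusted p = 0.21). The probe set with the highest mean, 203426_s_at, read 7.64 and 7.72 on the miR-20a arrays and 7.65 and 7.89 on the miR-NT arrays. There the groups overlapped and the change was -0.09 ± 0.11. IGFBP2, the neighbour of IGFBP5 on chromosome 2, is a binding protein often raised in high-grade glioma. It had 1 probe set, 202718_at, at 5.43 and 5.95 on the miR-20a arrays and 5.62 and 5.74 on the miR-NT arrays. The miR-20a arrays lay on both sides of the miR-NT arrays, and the change was 0.004 ± 0.17 (95% interval -0.40 to 0.41).

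IGFBP4, an inhibitor of IGF action that the protease PAPPA cuts, read 12.18 and 12.08 on the miR-20a arrays and 12.34 and 12.09 on the miR-NT arrays. IGFBP6, which prefers IGF2 over IGF1, read 12.33 and 12.25 on the miR-20a arrays and 12.32 and 12.25 on the miR-NT arrays. Each of these genes had 1 probe set, with overlapping groups. The changes were -0.09 ± 0.11 for IGFBP4 (95% interval -0.36 to 0.19) and 0.003 ± 0.09 for IGFBP6 (-0.22 to 0.22). After quantile normalization IGFBP4 stood at -0.24 and the near-zero value of IGFBP6 turned to -0.15.

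**Figure D3:**
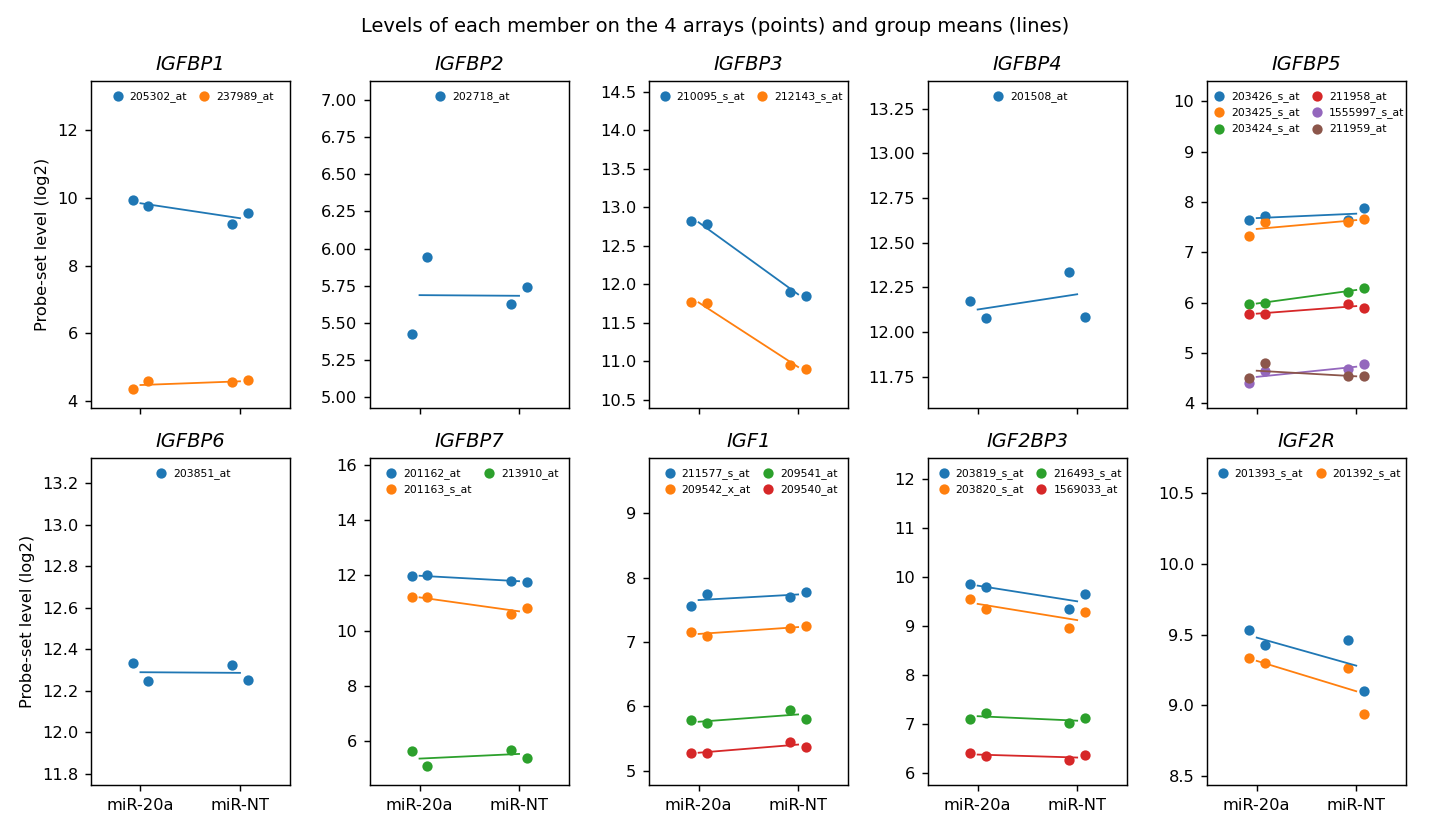
log2 probe-set level (vertical axis, a separate range for each gene) of the 10 genes on the 2 miR-20a arrays (left) and the 2 miR-NT arrays (right). Points are arrays, lines join group means and colours mark probe sets, and for IGFBP3 both miR-20a points of each probe set lie over 0.8 log2 units above its miR-NT points.

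IGF1, the only ligand among the members, had 4 probe sets, each with a lower mean on the miR-20a arrays, as had 23166 of all 41920. None passed the threshold (limma, lowest adjusted p = 0.50). The probe set with the highest mean, 211577_s_at, read 7.56 and 7.74 on the miR-20a arrays and 7.69 and 7.78 on the miR-NT arrays, so the groups overlapped. In the other 3 the groups did not overlap, as in 27.2% of all probe sets in the lower direction. Among them, 209541_at and 209540_at lay below the 40th percentile of mean level. The 4 changes lay between -0.13 and -0.09, close to the SE of about 0.09 to 0.10 of each. The name of 209542_x_at carries the suffix that Affymetrix gives to probe sets that may bind other transcripts.

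IGF2R, the receptor that clears IGF2, had higher means by both of its probe sets. Probe set 201393_s_at read 9.53 and 9.43 on the miR-20a arrays and 9.46 and 9.10 on the miR-NT arrays. Probe set 201392_s_at read 9.33 and 9.30 on the miR-20a arrays and 9.26 and 8.94 on the miR-NT arrays. In both, miR-NT replicate 2 was the lowest array, and without it the changes of 0.20 ± 0.13 and 0.21 ± 0.12 (SE) were 0.02 and 0.05. Neither passed (limma adjusted p = 0.48 and 0.41).

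IGF2BP3 encodes an oncofetal RNA-binding protein that is found in many tumours and acts inside the cell, on mRNA. By 203819_s_at it read 9.85 and 9.79 on the miR-20a arrays, against 9.35 and 9.66 on the miR-NT arrays. By 203820_s_at it read 9.55 and 9.36 on the miR-20a arrays, against 8.95 and 9.29 on the miR-NT arrays. The groups stood apart in both, with miR-NT replicate 1 the lowest array. Their changes were 0.32 ± 0.12 and 0.33 ± 0.14 (SE, limma adjusted p = 0.25 and 0.28), and without miR-NT replicate 1 they were 0.17 and 0.16. The remaining probe sets, 216493_s_at and 1569033_at, had changes of 0.09 and 0.06 with overlapping groups.

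**Figure D4:**
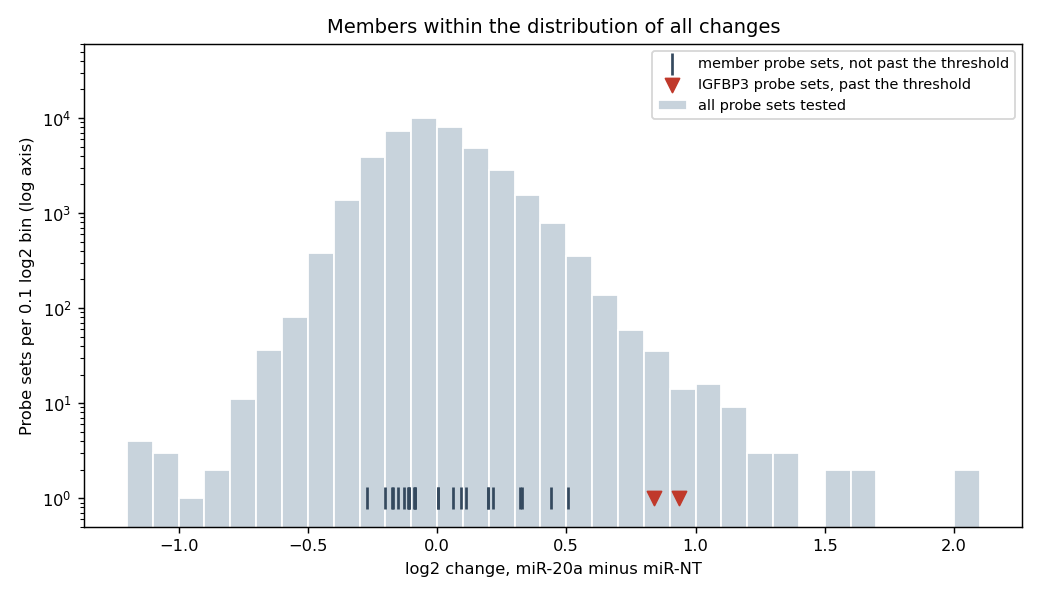
Number of probe sets per 0.1 log2 bin of change (miR-20a minus miR-NT), over all 41920 probe sets tested, on a log axis. Ticks mark the 24 member probe sets that did not pass, which lie between -0.27 and 0.51, and triangles mark IGFBP3 at 0.84 and 0.94.

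Other genes of the IGF system were read by 1 probe set each, that with the highest mean level, and are to be set against all 18304 genes read that way. Of these, 0.164% passed the adjusted threshold, and 20.2% had an unadjusted p under 0.05 (limma), 11.8% of all genes being higher and 8.33% lower. Adjusted p-values under other settings were followed only for the 3 genes of each list with the smallest p. Where such a gene passed the adjusted threshold under another setting, that is given with its value. Of 15 measured ligand carriers, receptors and signalling genes, 0 passed the adjusted threshold (limma), while at the unadjusted threshold 3 were higher and 3 lower. Their median change was -0.03, against -0.01 over all genes. IGFALS, the acid-labile subunit that joins IGFBP3 in its blood complex, stood at -0.31 ± 0.10 (SE, limma adjusted p = 0.19). The kinase gene AKT1 had a change of -0.39 ± 0.09 (adjusted p = 0.15, limma), which passed in 1 of 13 alternatives, eBayes with trend and robust (adjusted p = 0.047, over a range of 0.047 to 0.64). PIK3R1, a regulatory subunit of phosphoinositide 3-kinase, stood at 0.31 ± 0.09 (adjusted p = 0.17, limma), and at 0.21 with the mean of its probe sets.

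Proteases that cut IGF-binding proteins, and their inhibitors, held 1 call among 14 measured genes, against 0.164% of all genes, and at the unadjusted threshold (limma) 4 were higher and 4 lower, with a median change of -0.14. STC2, a secreted glycoprotein that inhibits PAPPA, rose 2.61-fold, with 11.11 and 11.01 on the miR-20a arrays, against 9.78 and 9.56 on the miR-NT arrays. Its log2 change was 1.38 ± 0.11 (SE, limma adjusted p = 0.024), and its 2 probe sets shared the sign. The call was lost without miR-NT replicate 1 or replicate 2, where the change was 1.49 and 1.27. It was also lost with the replicate block and with the crossed block (limma adjusted p = 0.36 and 0.23). STC1, its paralogue, which also inhibits PAPPA, had the opposite sign at -0.48 ± 0.09 (limma adjusted p = 0.13), as did 3 of 3 of its probe sets. It passed in 2 of 13 alternatives, with trend and robust and with the mean of its probe sets (limma adjusted p = 0.026 and 0.041, over a range of 0.026 to 0.64). PLAU, the urokinase that activates plasmin, had a change of 0.44 ± 0.09 (adjusted p = 0.14, limma), but 0.25 with the mean of its probe sets and 0.27 after quantile normalization. It passed with trend and robust alone (limma adjusted p = 0.029, over a range of 0.029 to 0.64 in 13 alternatives).

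Of 13 measured genes outside the family whose proteins carry an IGFBP-type domain, 0 passed the adjusted threshold. At the unadjusted one 2 were higher and 0 lower (limma). The median change of this list was 0.002, and -0.003 after quantile normalization and after cyclic loess. CRIM1, a membrane protein that binds bone morphogenetic proteins, stood at 0.69 ± 0.10 (SE, limma adjusted p = 0.098), and 3 of 3 probe sets had that sign. It passed in 3 of 13 alternatives, which were the filter on low levels, trend and robust, and the mean of its probe sets (limma adjusted p = 0.036, 0.014 and 0.048, over a range of 0.014 to 0.64). CCN1 and CCN3, matricellular proteins, had changes of 0.31 ± 0.10 and 0.18 ± 0.09, and of the 2 probe sets of CCN1 only 1 had that sign. With the mean of the probe sets CCN1 stood at 0.14 and CCN3 at 0.35, and after quantile normalization CCN3 stood at 0.11.

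Among 12 measured genes of mannose 6-phosphate sorting, the route that IGF2R serves besides IGF2, 0 passed the adjusted threshold, while 3 were higher and 1 was lower at the unadjusted one (limma). The median change was 0.07, which turned to -0.06 after quantile normalization and after cyclic loess. GNPTAB, which makes the mannose 6-phosphate tag, stood at 0.57 ± 0.11 (SE, limma adjusted p = 0.13), but 1 of the 3 probe sets had the other sign and their mean changed by 0.29. It passed with trend and robust alone (limma adjusted p = 0.033, over a range of 0.033 to 0.64 in 13 alternatives). VPS29 and VPS26A, subunits of the retromer that returns receptors to the Golgi, had changes of 0.48 ± 0.12 and 0.26 ± 0.10 (limma adjusted p = 0.15 and 0.24), and 1 of the 2 probe sets of VPS29 had that sign. The change of VPS29 was 0.22 with the mean of its probe sets, and that of VPS26A was 0.13 after quantile normalization and 0.14 after cyclic loess.

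The relatives of IGF2BP3 and other oncofetal RNA regulators and chromatin proteins had the sign opposite to IGF2BP3. The 6 measured genes of this list were IGF2BP1, IGF2BP2, LIN28A, LIN28B, HMGA1 and HMGA2. All 6 had lower means on the miR-20a arrays, as had 9698 of all 18304 genes. At an unadjusted p under 0.05 (limma) 3 were lower, where 8.33% of all genes were, and 0 passed the adjusted threshold. LIN28A and LIN28B lay below the 40th percentile of mean level, and the groups of LIN28B overlapped. Of the 3 probe sets of IGF2BP1, 2 had the lower sign. The median change of the 6 genes was -0.27, and all 6 were lower after quantile normalization, median centring and cyclic loess too. IGF2BP2 read 9.53 and 9.50 on the miR-20a arrays, against 9.84 and 9.77 on the miR-NT arrays, a change of -0.30 ± 0.09 (SE, limma adjusted p = 0.19). HMGA1 and HMGA2, chromatin proteins of embryonic and tumour cells, had changes of -0.63 ± 0.10 and -0.53 ± 0.11 (limma adjusted p = 0.11 and 0.14), and 6 of the 9 probe sets of HMGA2 had that sign, with a change of -0.14 in their mean. HMGA1 passed in 3 of 13 alternatives, which were the filter on low levels, trend and robust, and the mean of its probe sets (limma adjusted p = 0.041, 0.021 and 0.015, over a range of 0.015 to 0.64), and HMGA2 passed with trend and robust alone (0.034, over a range of 0.034 to 0.64). Whether IGF2BP3 and these genes differ in their change was not tested.

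Facts of the arrays that move with the groups stand beside all of the above. Across probe sets the log2 change tended to be larger at a higher mean level (Spearman correlation 0.22). The IGFBP3 probe sets lay at percentiles 99.1 and 97.9 of mean level. The part of level in the changes was not tested. For the array controls of ACTB, the 3′ level exceeded the 5′ level by 0.52 and 0.46 log2 units on the miR-20a arrays and 0.20 and 0.35 on the miR-NT arrays, and for those of GAPDH by 0.27 and 0.28 on the miR-20a arrays and 0.22 on each miR-NT array. Both 3′ minus 5′ differences were larger on the miR-20a arrays (exact permutation test, two-sided p = 0.333, the smallest that 2 against 2 arrays allow). Their part in the IGFBP3 difference was not tested. No detection calls came with the values, so a level could not be told from background, and precision is limited by the small number of arrays. Of the 26 probe sets, 16 lay at or above the 40th percentile of mean level over all probe sets, and IGFBP2 was the only gene with none of them. For the same reason no cell type marker could be called present or absent, and the labelled cell type was not settled by these levels. None of the 32 measured glial, epithelial, blood, endothelial and hepatocyte markers passed the threshold (limma), and at the unadjusted threshold 4 of the 32 were lower and 0 higher, where 8.33% of all genes were lower and 11.8% higher. The mean level of the 9 glial and glioma markers was 8.50 and 8.43 on the miR-20a arrays and 8.60 and 8.59 on the miR-NT arrays. Of these markers, VIM and CD44 averaged 14.66 and 12.64 on the miR-20a arrays, and the rest averaged between 4.92 and 8.79 there. The 4 other lists had mean levels of 6.21 to 7.32 on the miR-20a arrays and 6.30 to 7.26 on the miR-NT arrays. The part of cell makeup in the results was not tested, and fewer cells of a type and less RNA per cell cannot be told apart in bulk samples.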

How the data were processed

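Total RNA of 4 samples was labelled as biotinylated cRNA and read on single-colour Affymetrix arrays, per the labels' protocols. The authors deposited log2 levels per probe set, 1 column per sample, made with the R package affy, per the submitters' processing notes. Its version and the method used to correct background, normalize and summarize probes were not given in the sources used here. Base 2 is an inference, drawn from a highest value of 15.07. The table held 41930 probe sets. The 10 array controls were left out of the fits, and no filter on low values was applied. Gene names came from the platform annotation of GEO and were compared through Entrez identifiers with RefSeq (GRCh38.p14, 0 changed), and 37465 probe sets named 1 gene, 1727 several and 2728 none.

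The model for miR-20a minus miR-NT used limma 3.58.1 under R 4.3.3 (lmFit, eBayes, an intercept and the group) over all 41920 probe sets, with two-sided p-values adjusted by Benjamini-Hochberg over all of them and a threshold of 0.05. The prior had 4.60 degrees of freedom. The fit was tested on simulated data. Every probe set of each member was named. Other genes were taken from 5 lists of the IGF system and its neighbours, each by its highest-mean probe set, and the 3 with the smallest p per list were named, along with any past the threshold. The members and lists were chosen with earlier results of these data known. The results were repeated with quantile normalization, with median centring, with a replicate block, with a filter on level, with a trend and robust fit, with 1 value per gene, at other thresholds and without each array in turn. Cyclic loess and a crossed block were added after seeing the data. Same-numbered arrays deviated from their group means with a correlation of -0.12 across probe sets, so the numbers were not taken as pairs. No 2 columns were copies: at most 128 values were equal.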

Additional observations from a re-analysis of the deposited data

Results flagged for a closer look

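The 3′ minus 5′ difference of the array controls, which entered no comparison between genes, was above its miR-NT level on the miR-20a arrays. For ACTB it averaged 0.486 log2 units in miR-20a samples and 0.272 in miR-NT samples, and for GAPDH 0.275 in miR-20a samples and 0.222 in miR-NT samples (n = 2 each, exact permutation test, two-sided p = 0.333 for each, the smallest the design allows).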

How the results depend on the processing

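The log2 change of both IGFBP3 probe sets stayed positive under every setting run, and the member count past the threshold (2 higher, 0 lower, limma) did not hold under all of them. It was 0 higher with the replicate block and 0 with the crossed block (limma, with 3 and 6 member probe sets higher at an unadjusted p under 0.05), and with the replicate block both IGFBP3 probe sets had an adjusted p of 0.36 (limma). It was 1 higher with quantile normalization, 1 with cyclic loess, 1 with 1 probe set per gene and 1 with the mean of all probe sets of a gene (where only 1 value per gene exists), 6 at the unadjusted threshold, and 0 to 1 when 1 array was left out. Lower calls numbered 1 at the unadjusted threshold. Over all probe sets, 50 were higher and 7 lower. Both counts were 0 with the replicate block and with the crossed block (5754 and 7343 at an unadjusted p under 0.05, limma). They were 269 and 65 with the lower 40% by level left out, 783 and 174 with trend and robust, 125 and 28 with gene means, 132 and 27 at a threshold of 0.1, and 3965 and 3522 at the unadjusted one. The lower count was 13 with quantile normalization and 11 with 1 probe set per gene. Leaving out 1 array gave 0 to 59 higher and 0 to 7 lower. Where an arm had 1 array left, it was assumed to vary like the other group. Signs turned only for values that had not passed. IGFBP6 was -0.15 with quantile normalization and -0.15 with cyclic loess, and between -0.040 and 0.046 when 1 array was left out. That last range was -0.23 to 0.0059 for IGFBP1 237989_at, -0.25 to 0.26 for IGFBP2, -0.21 to 0.040 for IGFBP4, -0.21 to 0.034 for IGFBP5 203426_s_at, -0.042 to 0.26 for IGFBP5 211959_at, -0.43 to 0.093 for IGFBP7 213910_at and -0.17 to 0.00028 for IGF1 211577_s_at. The cause of these differences was not tested.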

Other observations

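Of the 3 probe sets annotated to both INS-IGF2 and IGF2, 202409_at read 6.17 and 6.27 on the miR-20a arrays and 6.69 on each miR-NT array, a log2 change of -0.47 ± 0.09 (SE, n = 2 each, limma adjusted p = 0.13). The other 2 had overlapping groups and changes of 0.02 and -0.03. IGFBP7-AS1, annotated as an antisense gene of IGFBP7, read 4.16 and 4.28 on the miR-20a arrays and 4.06 and 4.55 on the miR-NT arrays, with overlapping groups.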
